A study of Mus musculus with 6 samples.

Results

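Heparan sulfate and chondroitin sulfate genes were described across the cell classes of the mouse hippocampus. They are the 55 of 26049 genes in the count matrix whose symbols name a chain polymerase, a chain-modifying enzyme, a sulfotransferase of the Chst family, a syndecan or a glypican. The rule reads symbols and no measured level. Nuclei came from the hippocampi of male mice with the Tau P301S transgene (PS19), a line in which the prion promoter drives a mutant human tau. Every group carried this transgene, and mice without it are not analysed here. The 6 libraries were 1 each of TBI AAV-VEGFC right, TBI AAV-VEGFC left, TBI AAV-GFP right, TBI AAV-GFP left, sham AAV-VEGFC right and sham AAV-GFP right hippocampus. TBI is a mild traumatic brain injury by controlled cortical impact on the right side, and AAV is an adeno-associated virus that carried VEGFC, a lymphatic growth factor, or GFP. Age, virus dose and times after injury or virus, the number of mice per library, and whether left and right libraries shared mice are not stated by the labels.

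The 6 libraries held 28650 nuclei, 3676 to 6002 each, and 15358208 to 18379148 UMIs (unique molecular identifiers, 1 for each captured RNA molecule). 91 cell barcodes occurred in more than 1 library. Levels are in CPM, UMIs per 1000000 UMIs of the summed nuclei of a class in a library. The authors' 9 classes were used, and the summed markers of 8 of them were highest in the class of that name in 6 of 6 libraries. The mixed neuron class has no markers of its own and held both excitatory and inhibitory ones. Excitatory cluster 1 is called CA1-like, cluster 4 CA3-like and clusters 2 and 3 dentate granule-like, after their markers, and inhibitory clusters 1, 3, 6 and 8 are called interneurons. The 5 listed markers of excitatory neurons, the most abundant class, were also read in glia, choroid plexus and fibroblasts, at 2.83% (OPC) to 6.63% (microglia) of their excitatory level. In fibroblasts, astrocyte markers summed to 1843 CPM and mural cell markers to 959.6 CPM (medians), beside 2028 CPM for fibroblast markers. Free RNA or misassigned nuclei can give counts outside their own class, so a neuronal gene at a like share in these classes was read as background.

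Heparan sulfate and chondroitin sulfate are long sugar chains made in the Golgi apparatus on core proteins of the cell surface and matrix. Enzymes then add sulfate groups at set positions, and the resulting pattern decides which growth factors, guidance cues and receptors bind. In the brain, heparan sulfate takes part in growth factor signalling and synapse formation, while chondroitin sulfate is a main component of perineuronal nets and of glial scars. Because classes were defined from the same counts, levels between classes are given as a description with no test.

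Some of the members were highest in the same class in every library. Of the 49 members with at least 100 UMIs, 19 had the same highest class in 6 of 6 libraries. The share over all genes was not counted, so whether this number is particular to these members was not tested. OPC, the oligodendrocyte precursors, held Chst11, Chst3, Chst5, Sdc3 and Sulf2. Astrocytes held Gpc5, Csgalnact1 and Sdc4, and fibroblasts held Gpc6, Hs3st3a1 and Chst15. Choroid plexus epithelium held Sulf1 and Hs6st2, excitatory neurons Hs6st3 and Extl1, oligodendrocytes Hs3st1 and Ndst4, microglia Extl3, and inhibitory neurons Hs3st2. In 18 of the 19 the lowest library of that class lay above every library of every other class, the exception being Chst3. The 6 members under 100 UMIs were Hpse with 67, Chst14 with 48, Sdc1 with 19, Hs3st6 and Chst4 with 15 each, and Chst13 with 4. They were not placed. Across the 55 members the UMI total and the length of the gene on the chromosome had a Spearman rho of 0.70 (n = 55 genes, which share libraries and depth), so CPM were compared between classes for a gene and not between genes.

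**Figure D1:**
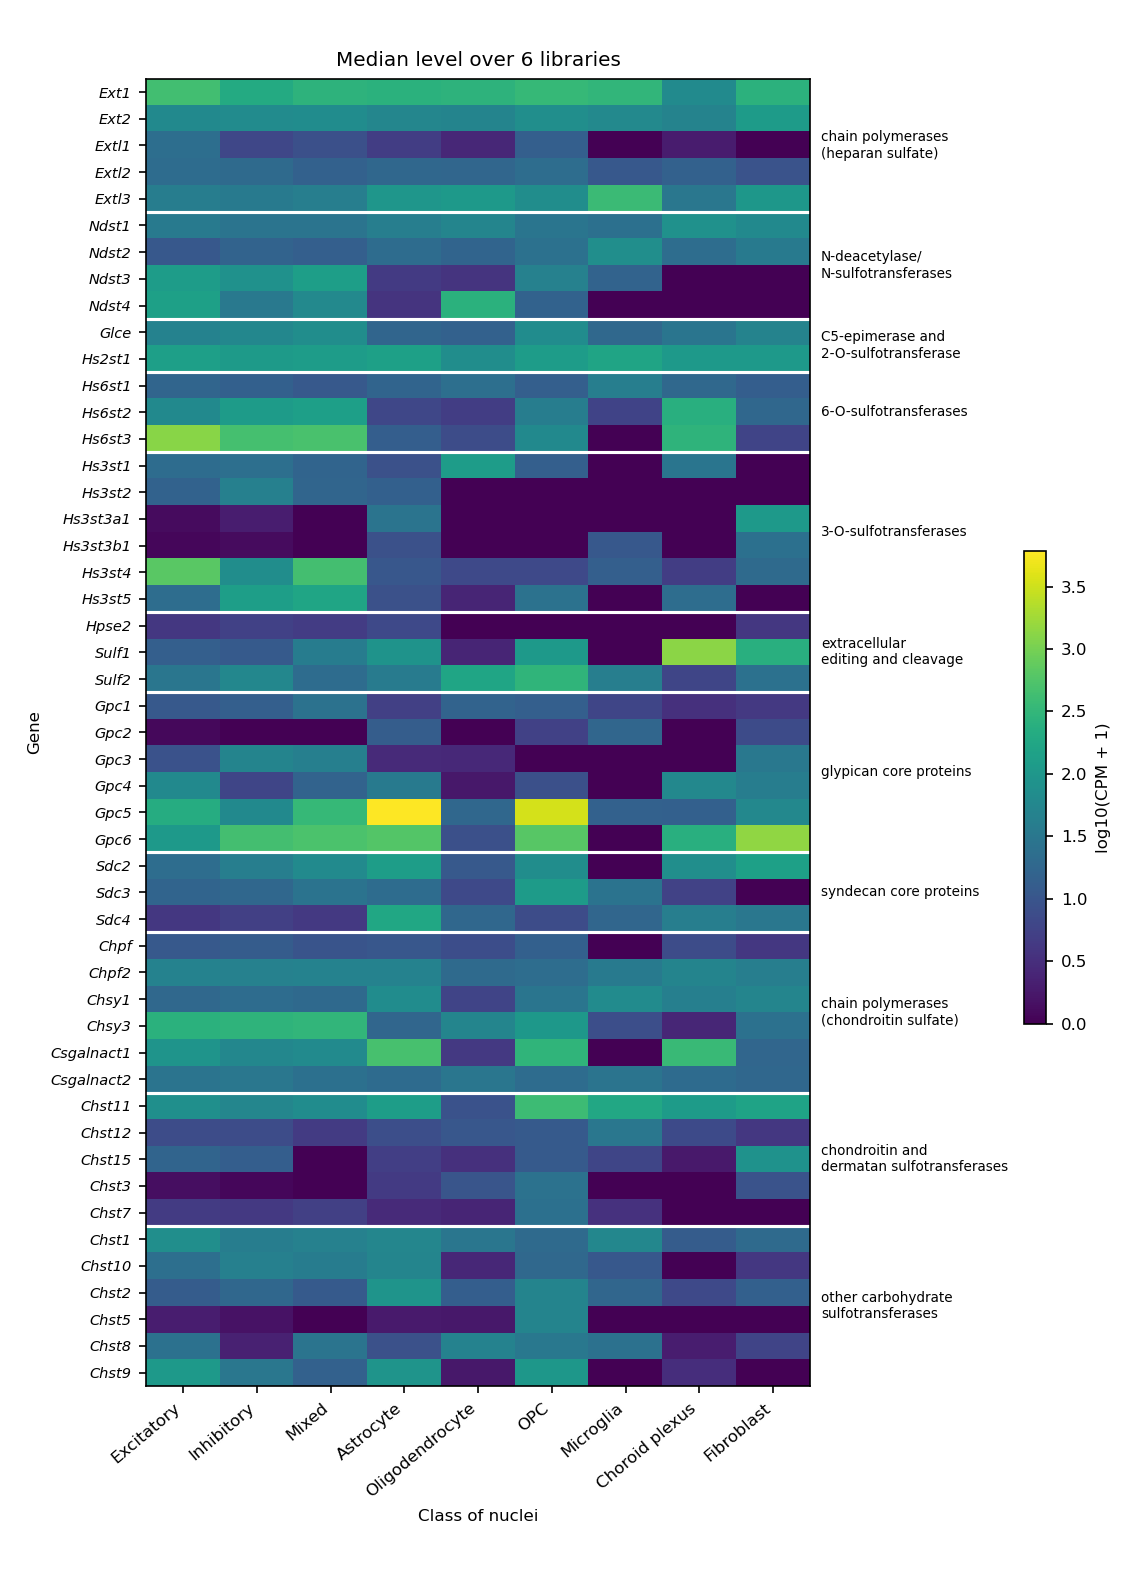
Median level over the 6 libraries of the 49 members with at least 100 UMIs (rows, grouped by role) in the 9 classes (columns), as log10(CPM + 1). The rows of Ext2 and Hs2st1 are close to even, whereas Gpc5 is bright in astrocytes and OPC, Sulf1 in choroid plexus and Extl3 in microglia.

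Among the enzymes that build the heparan chain, Ext1 and Ext2, which form the polymerase, were read in every class. Ext1 had 407 to 487 CPM (median 439.7) in excitatory neurons, 304 to 369 CPM (median 345) in OPC and 53 to 72.1 CPM (median 63.6) in choroid plexus. Ext2 had 71.8 to 171 CPM (median 119.6) in fibroblasts and class medians of 47.6 to 71.9 CPM elsewhere. Extl3, which adds the first N-acetylglucosamine and so commits the linker to heparan sulfate, had 314 to 481 CPM (median 382) in microglia, against 91 to 142 CPM in oligodendrocytes and 89.95 to 101 CPM in astrocytes. Its range in microglia overlapped with none of the other classes. Extl1, a related glycosyltransferase, had 20.1 to 24.7 CPM (median 22.1) in excitatory neurons, and Extl2 had class medians of 8.23 to 21.3 CPM.

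N-deacetylase/N-sulfotransferases make the first modification, on which the later sulfations depend, and the 4 isoforms differed in place. Ndst1, the broadly used isoform, had 66 to 109 CPM (median 79.7) in choroid plexus and 28 to 38.9 CPM (median 33.6) in excitatory neurons. Ndst2 had 35.4 to 147 CPM (median 72.3) in microglia and 9.8 to 10.4 CPM (median 10.1) in excitatory neurons. Ndst3 was highest in neurons, and Ndst4 was higher in oligodendrocytes than in the pooled neuron classes, though not than in the CA1-like set described further on. Ndst3 had 116 to 136 CPM (median 124) in excitatory neurons and 1.8 to 4.48 CPM (median 2.7) in oligodendrocytes, 2.23% of the excitatory level and so within background. Ndst4 had 216 to 299 CPM (median 258) in oligodendrocytes, against 125 to 164 CPM (median 139) in excitatory neurons and 2.69 to 27.9 CPM in OPC. The epimerase Glce, which turns glucuronic into iduronic acid, and Hs2st1, which sulfates that residue, were read in every class. Hs2st1 had class medians of 69.4 CPM in oligodendrocytes to 161 CPM in microglia, and Glce had 13.9 CPM in oligodendrocytes to 69.9 CPM in mixed neurons.

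Of the 6-O-sulfotransferases, Hs6st3 was highest in excitatory neurons, Hs6st2 in choroid plexus and Hs6st1 by mean in microglia. Hs6st3 had 1209 to 1433 CPM (median 1309) in excitatory neurons, 374 to 607 CPM (median 465) in inhibitory neurons and 263 to 376 CPM (median 289) in choroid plexus. The choroid level was 23% of the excitatory one, above the background share, whereas astrocytes had 0.951% and oligodendrocytes 0.611%. Hs6st2 had 218 to 259 CPM (median 244) in choroid plexus, against 84.2 to 161 CPM in mixed and 77.9 to 149.9 CPM in inhibitory neurons. Pooled over libraries, inhibitory cluster 7 had 262 CPM of Hs6st2, above the 241 CPM of choroid plexus. Hs6st1 had class medians of 10.4 CPM in mixed neurons to 40.1 CPM in microglia. Its microglial level rested on 21 UMIs (0 to 62.8 CPM), and microglia were its highest class in 3 of 6 libraries. Excitatory cluster 6 had 57 CPM of Hs6st1, from 121 UMIs. Sulf1 and Sulf2 remove 6-O-sulfates outside the cell, and they were highest in different classes. Sulf1 had 1316 to 1555 CPM (median 1342) in choroid plexus, 193 to 343 CPM (median 239) in fibroblasts, 93.7 to 142 CPM (median 109.5) in OPC and 7.89 to 18.8 CPM (median 12.7) in excitatory neurons. Choroid plexus nuclei held 4560 of its 7118 UMIs. Sulf2 had 249 to 336 CPM (median 296) in OPC, 115 to 188 CPM (median 166) in oligodendrocytes and 1.57 to 10.9 CPM (median 5.27) in choroid plexus. The choroid plexus was thus high for Hs6st2 and Sulf1, which add and remove 6-O-sulfate, and low for Sulf2. Hpse, the heparanase that cuts the chains, had 67 UMIs in all nuclei. Hpse2, a relative that does not cut them, had 393 UMIs, with class medians up to 5.9 CPM.

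3-O-sulfation is the rarest modification, and its enzymes were spread over several classes. Hs3st1, known for the antithrombin-binding site of heparin, had 90.1 to 140.2 CPM (median 124) in oligodendrocytes, against 25.6 to 30.4 CPM in choroid plexus and 19.95 to 26.5 CPM in inhibitory neurons. OPC, the precursors of those cells, had 2.69 to 27.9 CPM. Hs3st2 had 29 to 56.1 CPM (median 43.6) in inhibitory neurons, which held 833 of its 1881 UMIs. Of these, 712 lay in inhibitory cluster 2. Pooled over libraries, that cluster had 147 CPM, and excitatory cluster 5 had 121 CPM. Hs3st4 had 539 to 729 CPM (median 647) in excitatory neurons, and 0.808% to 2.03% of that level in the glial, choroid and fibroblast classes. Hs3st5 had 94.7 to 199 CPM (median 165) in mixed, 106 to 148 CPM (median 129.7) in inhibitory and 18.4 to 25.6 CPM (median 21.6) in excitatory neurons. Hs3st3a1 and Hs3st3b1 are near-identical in their catalytic part and can make the entry receptor of herpes simplex virus. Hs3st3a1 had 101 to 129 CPM (median 111) in fibroblasts and 24.4 to 39.5 CPM (median 27.3) in astrocytes, and at most 6.14 CPM in any library of the other classes. Hs3st3b1 had 18.5 to 91.1 CPM (median 24) in fibroblasts, 0 to 31.4 CPM (median 9.94) in microglia and 4.13 to 9.29 CPM (median 7.78) in astrocytes, from 125 UMIs in all. Reads that match both genes cannot be assigned to either by sequence, so the separate levels of the pair are uncertain. The genes are neighbours on chromosome 11, 513 kb apart and pointing away from each other (mm10, GENCODE M21).

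Promoter sequences of 4 of these enzymes are shown, chosen after their levels were seen, so that enzymes of the same family with different classes can be set side by side. They are RefSeq windows of 300 bases (GRCm38.p6), each around a gene start that RefSeq gives, written 5′ to 3′ on the strand of the gene. Capitals mark the GC box GGGCGG and the CCAAT box CCAAT on either strand, which may overlap. The Hs3st1 window lies inside the longer gene of GENCODE M21, which starts at 39755475 on the minus strand.
Hs3st3a1 (chr11:64435082-64435381, plus strand): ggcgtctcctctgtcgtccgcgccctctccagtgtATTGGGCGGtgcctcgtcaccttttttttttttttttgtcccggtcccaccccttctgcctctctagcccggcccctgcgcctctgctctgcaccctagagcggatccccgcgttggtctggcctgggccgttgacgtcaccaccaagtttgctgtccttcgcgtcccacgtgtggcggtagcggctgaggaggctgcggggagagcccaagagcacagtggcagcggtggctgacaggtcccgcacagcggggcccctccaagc
Hs3st3b1 (chr11:63922235-63922534, minus strand): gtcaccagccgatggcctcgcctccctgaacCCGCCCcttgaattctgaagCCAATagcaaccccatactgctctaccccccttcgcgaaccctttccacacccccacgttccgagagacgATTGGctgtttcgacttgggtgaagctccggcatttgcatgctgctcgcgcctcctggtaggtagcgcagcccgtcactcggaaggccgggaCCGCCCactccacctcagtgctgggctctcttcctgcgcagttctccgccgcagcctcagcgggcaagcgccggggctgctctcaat
Hs3st4 (chr7:123982578-123982877, plus strand): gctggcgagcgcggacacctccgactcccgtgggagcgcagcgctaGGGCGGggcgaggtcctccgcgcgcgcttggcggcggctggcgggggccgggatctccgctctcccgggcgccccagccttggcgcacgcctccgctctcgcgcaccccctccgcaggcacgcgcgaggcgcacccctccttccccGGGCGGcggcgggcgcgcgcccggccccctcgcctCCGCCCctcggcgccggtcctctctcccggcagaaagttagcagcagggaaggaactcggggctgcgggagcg
Hs3st1 (chr5:39644582-39644881, minus strand): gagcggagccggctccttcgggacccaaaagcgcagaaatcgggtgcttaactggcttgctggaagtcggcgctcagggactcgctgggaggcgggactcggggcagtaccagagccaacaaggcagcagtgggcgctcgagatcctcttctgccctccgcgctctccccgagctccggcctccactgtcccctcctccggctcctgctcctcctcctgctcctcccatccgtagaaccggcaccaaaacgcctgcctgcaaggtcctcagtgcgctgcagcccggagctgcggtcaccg

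Hs3st3a1 and Hs3st3b1, the pair highest by mean in fibroblasts, each held 23 CpG dinucleotides. On either strand, Hs3st3a1 held 1 GC box and 1 CCAAT box, and Hs3st3b1 held 2 of each. In Hs3st3a1 the CCAAT box on the minus strand runs into the GC box. Hs3st4, the excitatory enzyme, held 3 GC boxes, no CCAAT box and 47 CpG. Hs3st1, the oligodendrocyte enzyme, held neither box and 24 CpG. Over the 50 promoter windows found for 43 of the 55 members, 70.00% held a GC box, 42% a CCAAT box and 6.0% the TATA box TATAAA, on either strand. Of all 32851 windows of the same length, 35.7%, 37.4% and 13.6% held them. The median number of CpG was 22 in member windows and 7 in all windows. These matches describe letters in the windows only.

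Core proteins carry the chains, and the glypicans, which are held by a lipid anchor, differed widely between classes. Gpc5 had 5737 to 6533 CPM (median 6056) in astrocytes and 3275 to 3541 CPM (median 3406) in OPC, against 182 to 263 CPM (median 217) in excitatory neurons and 4.72 to 16.5 CPM (median 13.3) in choroid plexus. The related and neighbouring Gpc6, 400.1 kb away on chromosome 14, had 1264 to 1589.7 CPM (median 1443) in fibroblasts, 611 to 790.3 CPM (median 639.8) in OPC, 567 to 615 CPM (median 579) in astrocytes and 397 to 502 CPM (median 441) in inhibitory neurons. Fibroblasts were its highest class but not its highest cluster. Pooled over libraries, Gpc6 had 2937 CPM in excitatory cluster 16 (427 UMIs) and 1764 CPM in excitatory cluster 6. Gpc4, known from cultured astrocytes as a signal for synapse formation, had 21.3 to 37.1 CPM (median 34.6) in astrocytes and 51.4 to 74.7 CPM (median 62.3) in excitatory neurons, with the dentate granule-like set at 124 to 154 CPM (median 147). Gpc3 had 38.9 to 63.5 CPM (median 50.02) in inhibitory neurons, and Gpc1 and Gpc2 had class medians of at most 25.5 CPM. The syndecans, which cross the membrane, were highest outside neurons. Sdc4 had 169 to 199 CPM (median 180.0) in astrocytes, against 32.8 to 41.9 CPM in choroid plexus, and 1884 of its 2416 UMIs were astrocytic. Sdc3 had 98.4 to 125 CPM (median 116) in OPC and 14 to 20.7 CPM (median 17) in inhibitory neurons. Sdc4 and Sdc3 were much lower in every other class. Sdc2 had 65.6 to 257 CPM (median 140.4) in fibroblasts and 112 to 130.4 CPM (median 126) in astrocytes.

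**Figure D2:**
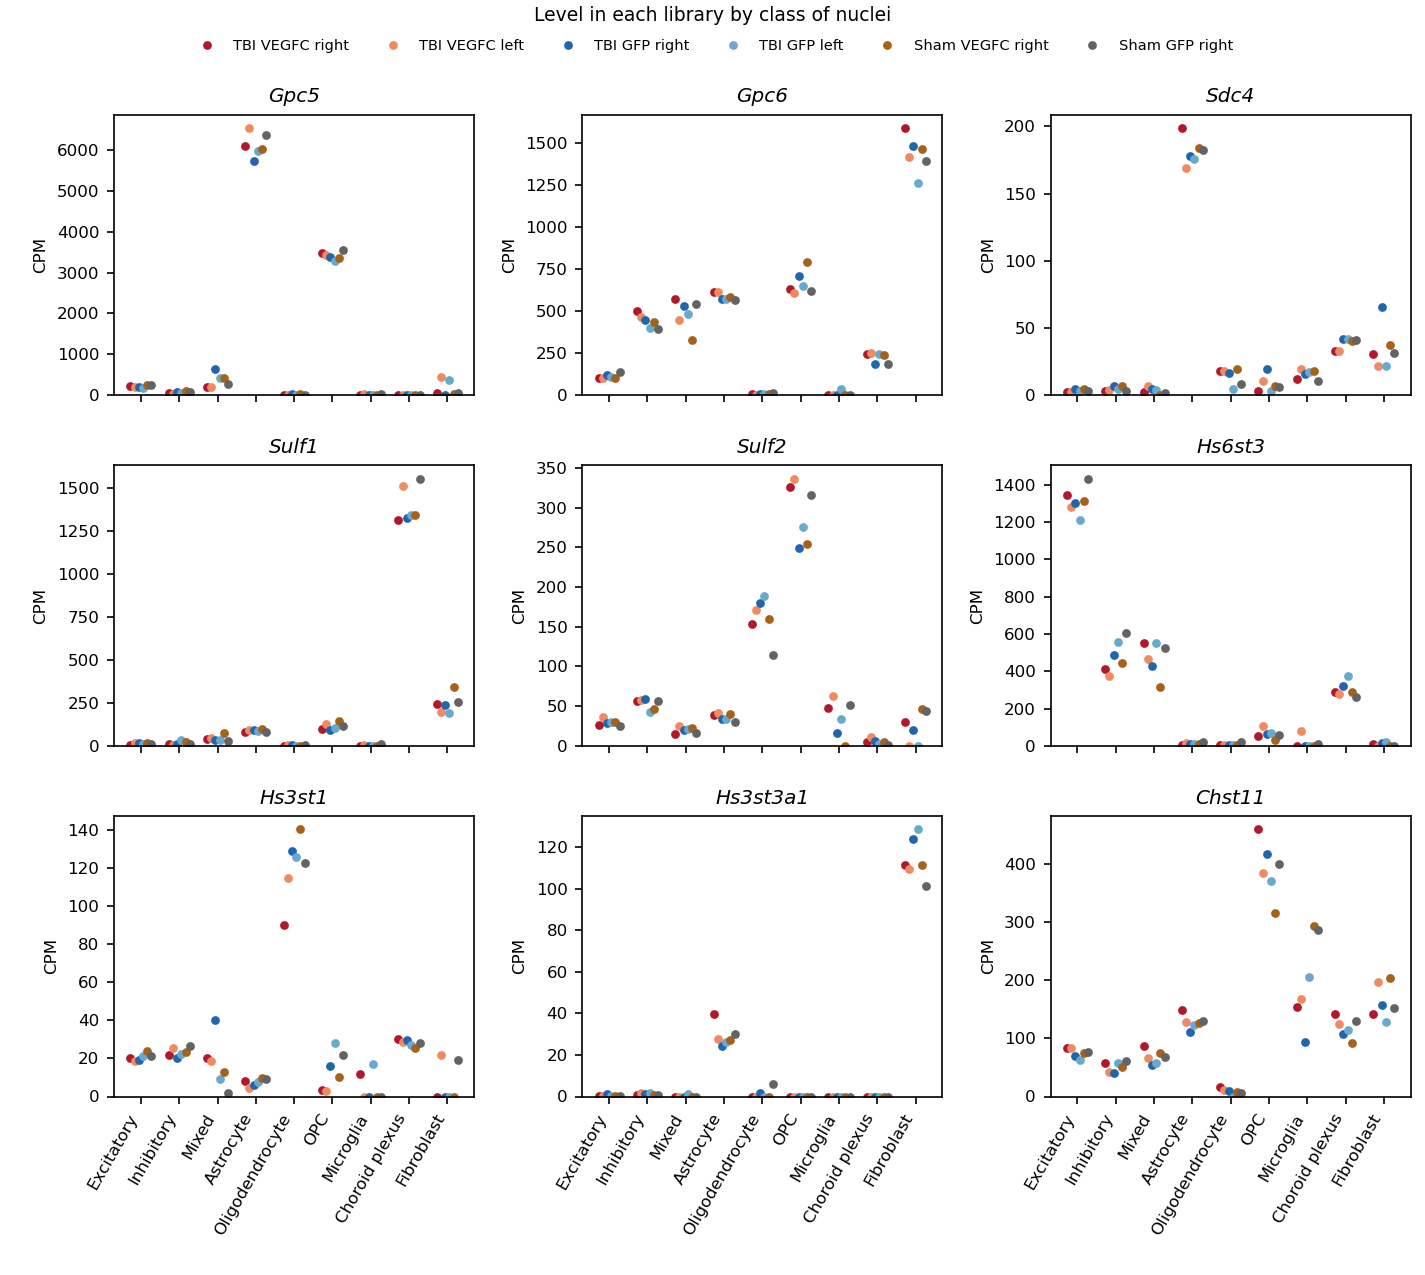
CPM of 9 members (panels) in each of the 9 classes (horizontal axis), with 1 point per library coloured by library. The 6 points of a class lie close together where the gene is high, as for Gpc5 in astrocytes and OPC, Sulf1 in choroid plexus and Hs3st1 in oligodendrocytes.

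For chondroitin sulfate, Csgalnact1 was highest in astrocytes and Chsy3 in neurons. Csgalnact1, which adds the first N-acetylgalactosamine, had 449.7 to 538 CPM (median 484) in astrocytes, 298 to 407 CPM (median 368) in choroid plexus, 184 to 329 CPM (median 294) in OPC and 81.6 to 95.9 CPM (median 88.6) in excitatory neurons. Chsy3, a chain polymerase, had 253 to 297 CPM (median 261) in excitatory, 203 to 319 CPM (median 289) in inhibitory and 199.6 to 398 CPM (median 306) in mixed neurons, against 13.9 to 20.3 CPM (median 16.6) in astrocytes and 83 to 132 CPM (median 104) in OPC. The polymerase partners Chpf2 and Chpf and the initiator Csgalnact2 were read in all or nearly all classes, with Chpf2 medians of 19.4 CPM in oligodendrocytes to 50.3 CPM in choroid plexus. The polymerase Chsy1 had 49.3 to 78.4 CPM (median 67.7) in astrocytes and 14.5 to 19.6 CPM (median 18) in excitatory neurons. Chst11, the 4-O-sulfotransferase of chondroitin, had 315 to 459.9 CPM (median 393) in OPC, 94.3 to 294 CPM (median 187) in microglia, 111 to 148 CPM (median 128) in astrocytes and 0 to 16.2 CPM (median 8.12) in oligodendrocytes. Thus the gene was far lower in oligodendrocytes than in their precursors in every library. The 6-O-sulfotransferases of chondroitin, Chst3 and Chst7, were also highest by mean in OPC, Chst3 with 17 to 32.3 CPM (median 25.3) and Chst7 with 15.7 to 41.8 CPM (median 24.1). Chst15, which adds a further sulfate to 4-sulfated chains, had 44.4 to 171 CPM (median 82.7) in fibroblasts. Chst12, another 4-O-sulfotransferase, had 0 to 36.8 CPM (median 31.1) in microglia and 6.38 to 10.2 CPM (median 7.23) in astrocytes. Its microglial level rested on 12 UMIs in all libraries together.

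Other Chst enzymes act on keratan sulfate and N-glycans. Chst9, which sulfates N-acetylgalactosamine on N-glycans, had 81.6 to 161 CPM (median 105) in excitatory neurons, 60.7 to 169.6 CPM (median 99.4) in OPC and 79.5 to 109 CPM (median 88.7) in astrocytes. Chst1, a keratan sulfate sulfotransferase, had 66.2 to 77 CPM (median 73) in excitatory neurons, and Chst10, which makes the HNK-1 epitope, had 46.8 to 61.9 CPM (median 52.5) in astrocytes and 38.1 to 48.5 CPM (median 43) in inhibitory neurons. Chst2, an N-acetylglucosamine 6-O-sulfotransferase, had 84.1 to 107 CPM (median 91.1) in astrocytes, and its relative Chst5 had 40.7 to 62.6 CPM (median 50.7) in OPC and at most 2.43 CPM in any library of another class. OPC nuclei held 100 of the 183 Chst5 UMIs. Chst8 had 36.8 to 50.4 CPM (median 46.1) in oligodendrocytes.

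Within neurons the same families separated the hippocampal fields. Hs6st3 had 2842 to 3129 CPM (median 3067) in the CA1-like set, 552 to 733 CPM (median 608) in the CA3-like set, 290.4 to 344 CPM (median 324) in the dentate granule-like set and 212 to 299.8 CPM (median 241) in interneurons. Hs3st4 was highest of the 4 sets in the CA3-like set, at 1458 to 1885 CPM (median 1599.8), against 213 to 283 CPM (median 228) in the CA1-like and 155 to 179.7 CPM (median 171) in the dentate granule-like set. Excitatory clusters 12 and 5, outside the sets, had more still, cluster 12 with 2769 to 3319 CPM and cluster 5 with 2302 to 2902 CPM. Hs3st5 had 122 to 164 CPM (median 138) in interneurons and 3.45 to 6.7 CPM in the CA1-like set. Of the 4 sets, Hs6st3 was thus highest in the CA1-like, Hs3st4 in the CA3-like set and Hs3st5 in interneurons. Excitatory cluster 6, outside the sets, had Hs6st3 at 2931 to 3736 CPM. Hs6st2 had 84 to 109 CPM (median 85.9) in the CA1-like set and 1.54 to 8.23 CPM (median 1.97) in the CA3-like set, and Hs6st1 had set medians of 10.1 to 17.8 CPM. Hs3st1 had set medians of 9.46 CPM in the CA3-like set to 30.5 CPM in interneurons, and Hs3st2 of 0.372 CPM in the dentate granule-like set to 9.73 CPM in interneurons.

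Ndst3 and Ndst4 were both high in the CA1-like set, Ndst3 with 305 to 332 CPM (median 313) and Ndst4 with 280.1 to 337 CPM (median 301), but they parted in the dentate granule-like set, where Ndst3 had 13.4 to 24.4 CPM (median 15.3) and Ndst4 152 to 188 CPM (median 172). Interneurons had Ndst3 at 82.4 to 104 CPM (median 94) and Ndst4 at 17.8 to 39.6 CPM (median 29.9). The CA3-like set had 13.9 to 28.8 CPM (median 20.1) of Ndst3 and 2.08 to 18.2 CPM (median 10.2) of Ndst4. The CA3-like set was thus low for both. Gpc5 had 639 to 877 CPM (median 689) in the CA1-like set and 15.4 to 38.4 CPM (median 20.1) in the CA3-like set, whereas Gpc6 had 479.9 to 572 CPM (median 519) in interneurons and 19.6 to 40.1 CPM (median 23.7) in the CA1-like set. Chsy3 had 268 to 314 CPM (median 291) in the dentate granule-like set and 152 to 321 CPM (median 269) in interneurons, 70.6 to 97.7 CPM (median 80.8) in the CA1-like set and 2.02 to 8.33 CPM (median 4.17) in the CA3-like set. The CA3-like set was the lowest of the 4 for Chsy3. Outside the sets, excitatory clusters 16 and 12 had more Chsy3, at 1499 and 1170 CPM pooled over libraries. Csgalnact1 and Chst9 had their highest set in the dentate granule-like neurons, Csgalnact1 with 161 to 184 CPM (median 171) and Chst9 with 197 to 325 CPM (median 227).

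**Figure D3:**
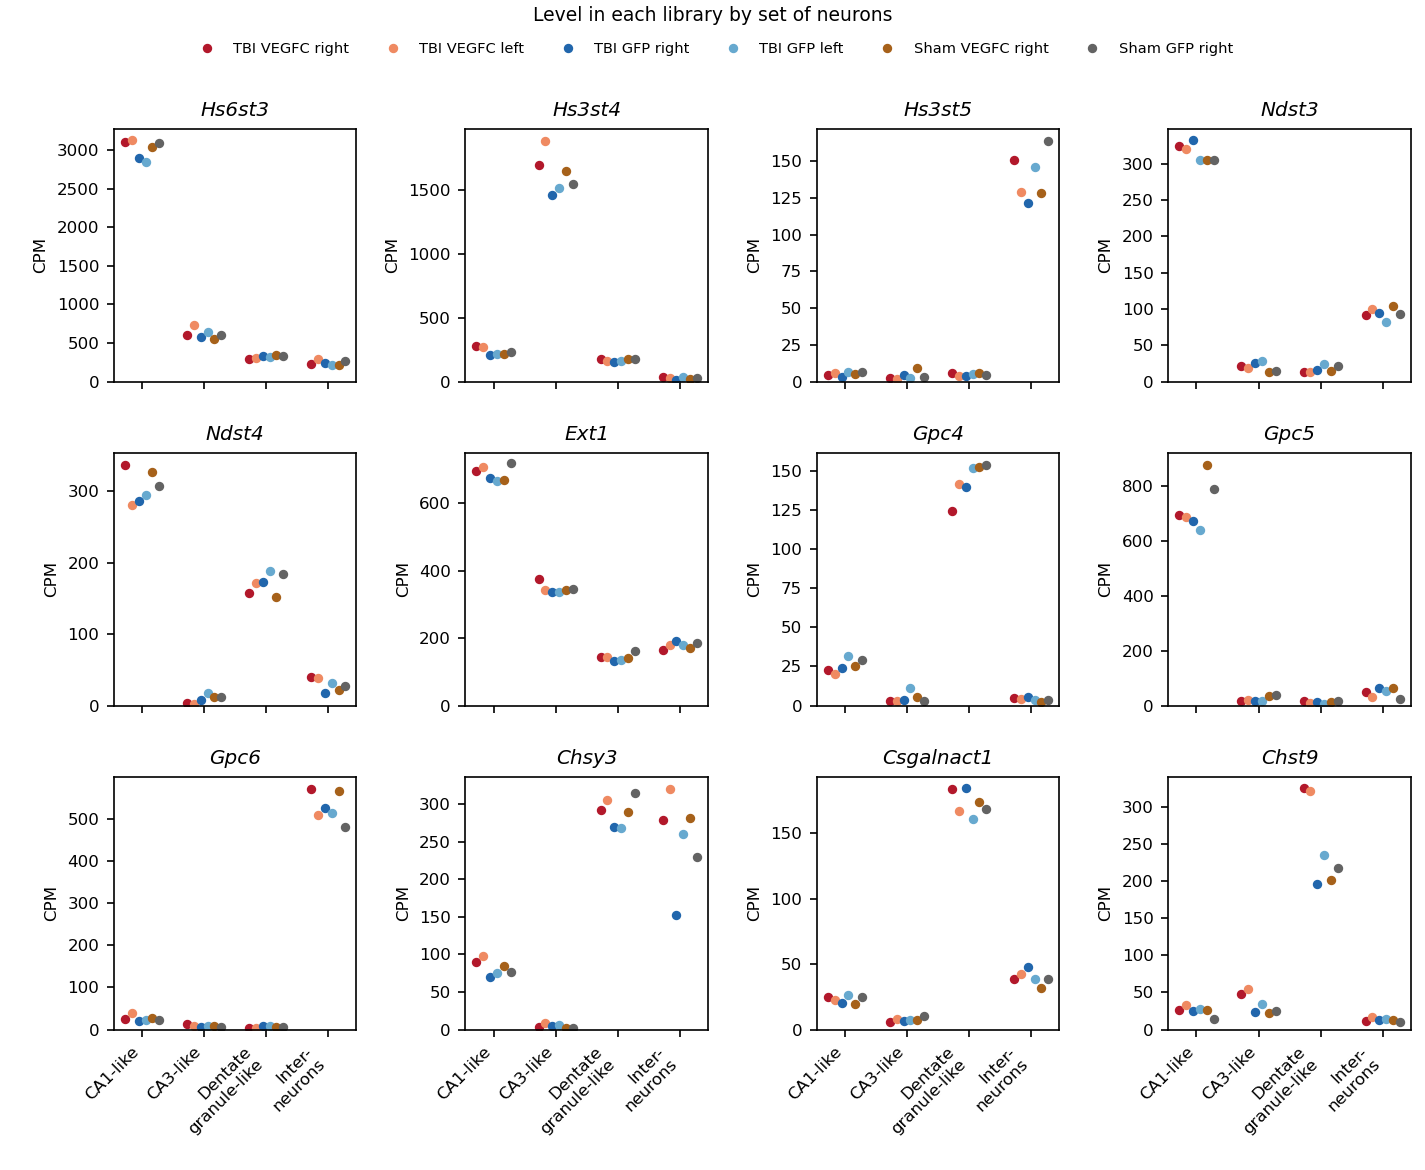
CPM of 12 members (panels) in 4 sets of neurons (horizontal axis), with 1 point per library coloured by library. Hs6st3, Ndst3, Gpc5 and Ext1 stand highest in the CA1-like set, Hs3st4 in the CA3-like set, Gpc4, Csgalnact1 and Chst9 in the dentate granule-like set, and Hs3st5 and Gpc6 in interneurons, in all 6 libraries.

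Comparisons between conditions were made with edgeR's quasi-likelihood test on summed counts, with p-values adjusted by the Benjamini-Hochberg method over all genes of a class and a threshold of 0.05. The additive model held a term for vector and a term for the 3 contexts, TBI right, TBI left and sham right, and left 2 residual degrees of freedom. Since each combination of injury, vector and side has 1 library, p-values lean on spread borrowed from other genes, and that spread may be technical. In the additive model the prior degrees of freedom, the weight of the borrowed spread, were 177 in interneurons and 72.2 in astrocytes, and without limit in fibroblasts. The neuron sets reuse nuclei of the classes. 49 members passed the filter on low counts in at least 1 class, from 4 in microglia to 45 in excitatory neurons, and the 6 members under 100 UMIs passed in none.

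VEGFC against GFP asked whether the vector moved these genes over the 3 contexts. A single member passed, Chsy3 in interneurons, which was higher with VEGFC. In the classes 0 of 241 member and class pairs passed, where 0.0281% of all gene and class pairs passed, and in the neuron sets 1 of 150, where 0.0247% of all pairs passed. At an unadjusted p under 0.05 there were 20 member pairs in the classes (8.3%, and 5.4% of all pairs) and 18 in the sets (12%, and 6.12% of all pairs). DESeq2 called 0 pairs in the classes and 0 in the sets, and limma-voom called 0 and 1. The median log2 fold over member pairs was 0.02 in classes and 0.04 in sets, beside -0.00122 and 0.000744 over all genes.

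Chsy3 in interneurons had 279 CPM in TBI VEGFC right against 152 in TBI GFP right, 321 in TBI VEGFC left against 259.8 in TBI GFP left, and 281 in sham VEGFC right against 230.3 in sham GFP right. The VEGFC library was higher in 3 of 3 contexts, and the 3 VEGFC values lay above the 3 GFP values (log2 fold 0.50, SE 0.09, adjusted p = 0.000634 by edgeR). The TBI GFP right value stood below the other 5. Without that library the log2 fold was 0.32 (adjusted p = 0.728), and without TBI VEGFC right it was 0.32 (adjusted p = 0.7). Both settings take the TBI right context out of this comparison, so they are not separate checks. The adjusted p was 1 with DESeq2 and 0.0586 among nuclei with a doublet score of at most 0.05. In each of the 4 interneuron clusters the VEGFC library was higher in each of the 3 contexts. Inhibitory cluster 1 had 239.8 against 72.7 CPM in TBI right, 223 against 173 in TBI left and 183 against 159 in sham right, VEGFC against GFP. The nearest values, in sham right of cluster 6, were 219.6 CPM with VEGFC and 206 CPM with GFP. The clusters share libraries and are no replicates. Inhibitory markers, 5 of 5 with UMIs in each library, summed to 1855, 1621 and 1729 CPM in the VEGFC and 1617, 1735 and 1815 CPM in the GFP libraries. Choroid plexus markers, read in interneurons at 143, 166 and 336 CPM in VEGFC and 299.8, 208 and 199 CPM in GFP libraries, were unequal between libraries, and their part in the result was not tested.

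**Figure D4:**
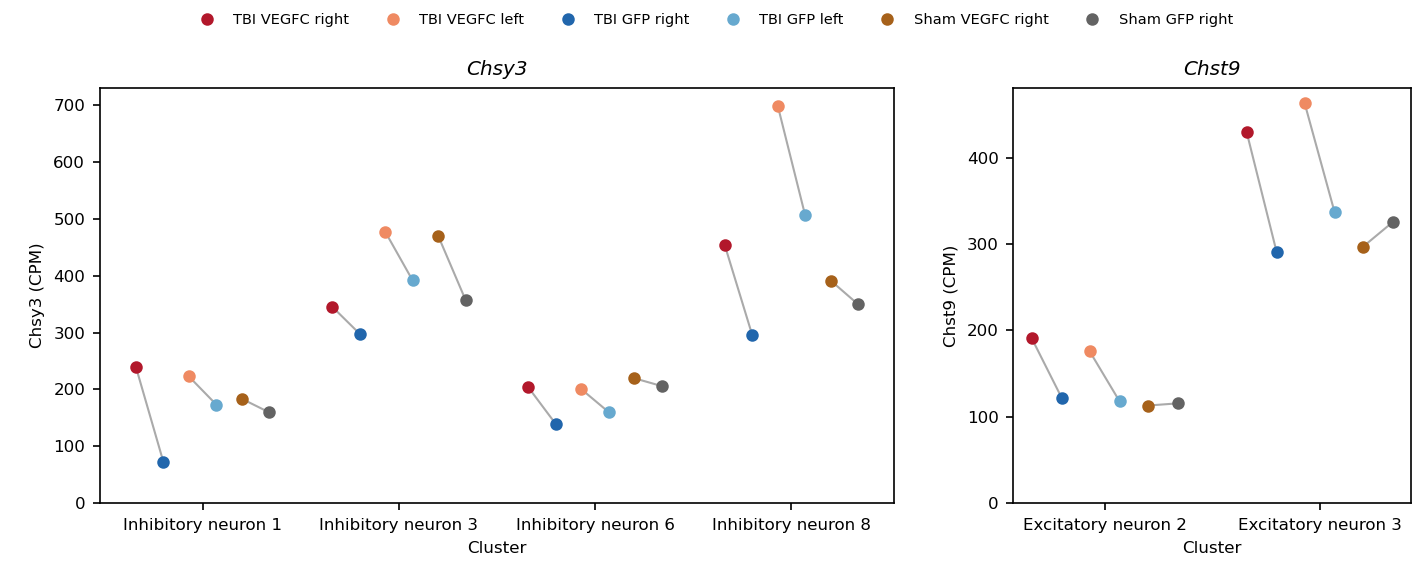
CPM of Chsy3 in the 4 interneuron clusters and of Chst9 in the 2 dentate granule-like clusters. Each line joins a VEGFC library to the GFP library of the same context on its right, in the order TBI right, TBI left and sham right. All Chsy3 lines fall to the GFP side, and Chst9 lines fall in TBI and not in sham.

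The 5 member pairs next in p did not pass. In dentate granule-like neurons Chst9 had a log2 fold of 0.39 (adjusted p = 0.175), in astrocytes Hpse2 had 1.54 (0.205), and in inhibitory neurons Hs6st3 had -0.41 (0.981). In the CA1-like set Chst8 had 0.44 (0.538) and Gpc6 had 0.53 (0.553). Chst8 had 49.3, 39.3 and 49.5 CPM in the VEGFC libraries and 34.5, 33.9 and 35.1 CPM in the GFP libraries (TBI right, TBI left, sham right), with no overlap. Gpc6 in the CA1-like set had 24, 40.1 and 28.1 CPM with VEGFC and 19.6, 21.8 and 23.3 CPM with GFP. Hs6st3 in inhibitory neurons had 411, 374 and 442 CPM with VEGFC and 488, 557 and 607 CPM with GFP, in the same order of contexts. Each VEGFC library of Hs6st3 lay below the GFP library of its context, and each VEGFC library of Gpc6 above it.

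TBI right against sham right asked what injury did on its own side, over both vectors. By edgeR 1 pair passed, Hpse2 in astrocytes, higher in TBI right, and no pair of gene and neuron set passed. In the classes 1 of 241 member pairs passed, where 0.0782% of all pairs passed, and in the sets 0 of 150, where 0.0884% passed. Unadjusted p was under 0.05 for 13 member pairs in the classes (5.39%, and 5.03% of all pairs) and 10 in the sets (6.67%, and 5.7%), and DESeq2 and limma-voom called 0. The median log2 fold over member pairs was 0.00806 in classes, beside -0.000618 over all genes. The Hpse2 result rested on few nuclei of 1 library. Its mean over the 6 libraries was 11.3 CPM, and 1.07 CPM among nuclei with a doublet score of at most 0.05. Hpse2 had 63 UMIs in TBI VEGFC right and 3 in TBI GFP right, against 4 in sham VEGFC right and 1 in sham GFP right (38.3, 1.49, 2.21 and 0.688 CPM; log2 fold 3.60, SE 0.64, adjusted p = 0.000486 by edgeR). TBI VEGFC right stood above the other libraries, and TBI GFP right lay between the sham libraries. In TBI VEGFC right the UMIs came from 5 of 884 astrocytes, with 30 in a single nucleus. The left TBI libraries had 17 UMIs with VEGFC and 27 with GFP, of which 10 and 16 were in 1 nucleus each. Without TBI VEGFC right the log2 fold was -0.20 (adjusted p = 1). Without the top nucleus of each library, an alternative added after seeing the data, it was 3.95 (adjusted p = 0.00832 by edgeR). Inhibitory markers, 5 of 5 with UMIs in each library, summed to 358 and 355 CPM in the TBI right and 365 and 406 CPM in the sham right astrocytes, and excitatory ones to 63.8 and 61.2 against 78.4 and 61.2 CPM. Their part in the result was not tested.

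The 5 pairs next in p were lower in TBI right and did not pass. Gpc5 in the CA3-like set had 16.8 CPM in TBI VEGFC right and 15.4 in TBI GFP right, against 36.7 in sham VEGFC right and 38.4 in sham GFP right (log2 fold -1.18, SE 0.28, adjusted p = 0.314 by edgeR). Both TBI left libraries, 21.9 CPM with VEGFC and 18.2 with GFP, were also under both sham libraries. In the CA1-like set, where Gpc5 is far higher, it had 693 and 672 CPM in TBI right against 877 and 788 in sham right, VEGFC before GFP (log2 fold -0.26, SE 0.09, adjusted p = 0.572 by edgeR), and 686 and 639 in TBI left. In microglia Chst11 had 154 and 94.3 CPM in TBI right against 294 and 287 in sham right, VEGFC before GFP, from 13 and 6 against 16 and 28 UMIs (log2 fold -1.19, SE 0.39, adjusted p = 0.785 by edgeR). The 2 TBI and the 2 sham libraries did not overlap. In astrocytes Hs6st3 had a log2 fold of -1.14 (adjusted p = 0.231) and Hs3st4 of -1.08 (0.417), both at 22 CPM or less, within the background share of their excitatory level.

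TBI right against TBI left compared the struck side with the other side of injured brains, with the TBI right libraries shared with the last comparison. Chsy3 in oligodendrocytes and Gpc5 in fibroblasts were lower on the struck side. In the classes 2 of 241 member pairs passed, where 0.0342% of all pairs passed, and in the sets 0 of 150, where 0.00822% passed. Unadjusted p was under 0.05 for 9 member pairs in the classes (3.73%, and 3.5% of all pairs) and 8 in the sets (5.33%, and 3.7% of all pairs). DESeq2 called 1 pair in the classes and 0 in the sets, and limma-voom called 1 and 1. The median log2 fold over member pairs was -0.00653 in classes, beside -0.000792 over all genes.

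Chsy3 in oligodendrocytes had 48.6 CPM in TBI VEGFC right and 26.9 in TBI GFP right, against 91 in TBI VEGFC left and 80.7 in TBI GFP left (log2 fold -1.20, SE 0.27, adjusted p = 0.042 by edgeR). The sides did not overlap, and the sham right libraries had 53.2 CPM with VEGFC and 47.1 with GFP, near TBI VEGFC right. The counts were 27 and 18 UMIs on the right and 61 and 36 on the left. The call held in 3 of 13 alternatives and was lost without any of the 4 TBI libraries, where adjusted p was 0.135 to 0.999. Without the top nucleus of each library it was 0.0931. Excitatory markers in oligodendrocytes, 5 of 5 with UMIs, summed to 57.6 and 74.8 CPM on the right and 121 and 80.7 CPM on the left, VEGFC before GFP. Chsy3 is a neuronal gene here, and the part of neuronal RNA in the result was not tested. Chsy3 in interneurons pointed the same way without passing, with 279 and 152 CPM in TBI right and 321 and 259.8 in TBI left, VEGFC before GFP (log2 fold -0.45, SE 0.11, adjusted p = 0.0793 by edgeR).

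Gpc5 in fibroblasts had 5 and 2 UMIs in TBI right against 20 and 17 in TBI left, VEGFC before GFP (50.6, 13.1, 437 and 364 CPM; log2 fold -3.73, SE 0.56, adjusted p = 3.85e-08 by edgeR). The left values rested on single nuclei, since 19 of 20 UMIs in TBI VEGFC left and 14 of 17 in TBI GFP left came from 1 nucleus, and those libraries held 27 and 32 fibroblasts. Without each library's top nucleus Gpc5 was under the filter on low counts. Gpc5 is highest in astrocytes and OPC. Astrocyte markers, 3 to 6 of 6 with UMIs, summed in fibroblasts to 1367 and 1599.8 CPM in TBI right against 2360.3 and 2443 in TBI left. Aqp4 was at 0 in both TBI left libraries and in TBI VEGFC right. OPC markers summed in fibroblasts to 334 to 677 CPM (median 437) over the 6 libraries, although Olig2 among them was at 0 in all 6. Their part in the result was not tested. Without TBI GFP right the adjusted p was 0.0667.

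The remaining pairs next in p were Hs3st2 and Csgalnact1 in inhibitory neurons, Gpc5 in the dentate granule-like set and Hpse2 in interneurons. Hs3st2 had a log2 fold of 0.68, Csgalnact1 of -0.65, Gpc5 of 0.78 and Hpse2 of 1.36, with an adjusted p of 1 each by edgeR. Hs3st2 had 41.3 and 56.1 CPM in TBI right against 29 and 31.5 in TBI left, VEGFC before GFP, and 45.8 and 51.4 in sham right. The left libraries were thus the lowest 2 of 6. Csgalnact1 in inhibitory neurons had 94.9 CPM in TBI GFP left and 46.5 to 58.8 CPM in the other 5 libraries.

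**Figure D5:**
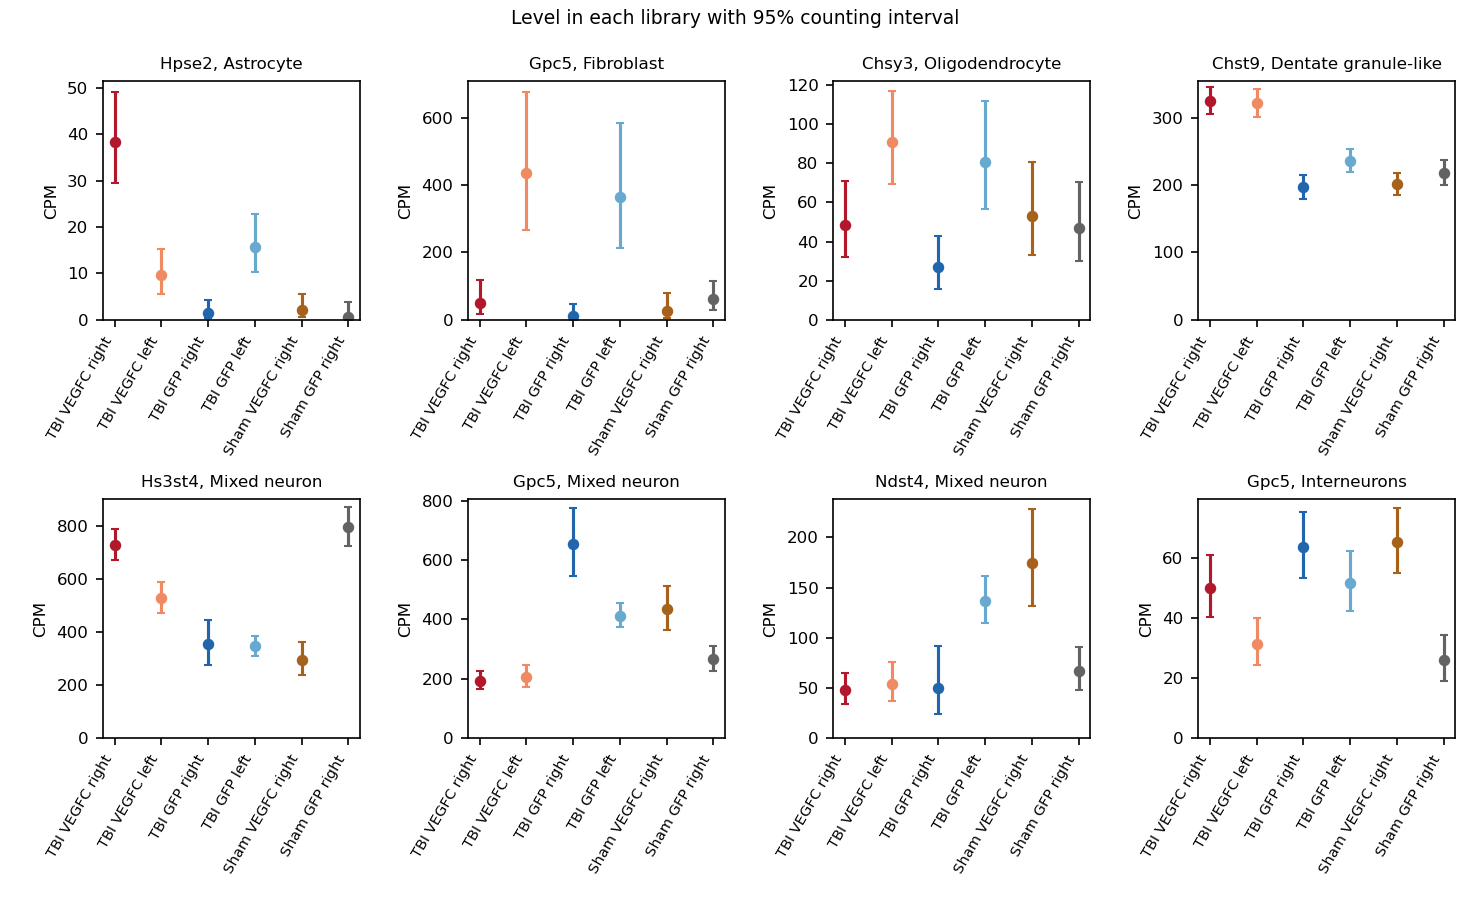
CPM by library, in the order TBI VEGFC right, TBI VEGFC left, TBI GFP right, TBI GFP left, sham VEGFC right and sham GFP right, for 8 pairs of gene and class past the threshold in a comparison. Bars are exact Poisson 95% intervals, which cover counting error only. Chst9 in dentate granule-like neurons stands apart in the 2 TBI VEGFC libraries, and Hpse2 in astrocytes in 1 library.

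The interaction asked whether the vector difference was another after TBI than after sham, with the left and right TBI libraries taken as replicates. It differed for Chst9 in dentate granule-like neurons, for Hs3st4, Gpc5 and Ndst4 in mixed neurons, and for Gpc5 in interneurons. In the classes 3 of 264 member pairs passed (1.14%), where 0.222% of all pairs passed, and in the sets 2 of 156 (1.28%), where 0.239% passed. Over classes and sets 2 of the 5 differences were positive and 3 negative. Unadjusted p was under 0.05 for 32 pairs in the classes (12.1%, and 7.25% of all pairs) and 20 in the sets (12.8%, and 7.64%). The median log2 difference over member pairs was 0.03 in classes and 0.10 in sets, beside -0.00335 and -0.00383 over all genes. DESeq2 called 2 pairs in the classes and 0 in the sets, and limma-voom called 3 and 2. Each sham group has 1 library, which is assumed to vary like the TBI groups. There was no sham left library and the fit held no side term, so side and injury are not separated. Whether the left and right TBI libraries shared mice is not stated by the labels, so their spread may be within mice only. In this fit the prior degrees of freedom were 47.9 in mixed neurons and 26.0 in interneurons. They were without limit in dentate granule-like neurons, where all the spread was thus borrowed.

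For Chst9 in dentate granule-like neurons the difference of VEGFC from GFP was larger after TBI than after sham. It had 325 CPM in TBI VEGFC right and 321 in TBI VEGFC left, against 197 in TBI GFP right and 235 in TBI GFP left, and 201 in sham VEGFC right against 218 in sham GFP right. The TBI VEGFC libraries stood above the other 4 (log2 difference 0.71, SE 0.14, adjusted p = 0.000135 by edgeR). The counting intervals of sham VEGFC right (185 to 218 CPM) and sham GFP right (199.6 to 237 CPM) overlapped. The TBI VEGFC libraries were the highest in both clusters of the set. Excitatory cluster 2 had 191 and 176 CPM in TBI VEGFC, 122 and 118 in TBI GFP, 113 in sham VEGFC and 116 in sham GFP, right before left. Excitatory cluster 3 had 431 and 464 CPM in TBI VEGFC, 291 and 337 in TBI GFP, 297 in sham VEGFC and 326 in sham GFP. Without each library's top nucleus the log2 difference was 0.70 (adjusted p = 0.000628 by edgeR). The call held under 10 of 11 alternatives, DESeq2 being the exception (adjusted p = 1). Dentate granule markers, 4 of 4 with UMIs, summed to 1100.1 and 1132 CPM in TBI VEGFC, 1088 and 969.8 in TBI GFP, 1065 in sham VEGFC and 1125 in sham GFP.

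In mixed neurons 3 members passed, in different directions, in a class where 126 of 10580 genes passed (1.19%). That class held 126 of the 198 calls over all classes. Hs3st4 had 729.6 CPM in TBI VEGFC right, 529 in TBI VEGFC left, 354 in TBI GFP right, 346 in TBI GFP left, 295 in sham VEGFC right and 796 in sham GFP right (log2 difference 2.40, SE 0.30, adjusted p = 2.31e-06 by edgeR). It was thus higher with VEGFC in both TBI contexts and lower with VEGFC in sham. Gpc5 in mixed neurons had 193 CPM in TBI VEGFC right, 206 in TBI VEGFC left, 653 in TBI GFP right, 412 in TBI GFP left, 434 in sham VEGFC right and 265 in sham GFP right (log2 difference -1.93, SE 0.32, adjusted p = 0.00026 by edgeR), and Ndst4 had 47.8 CPM in TBI VEGFC right, 53.6 in TBI VEGFC left, 49.9 in TBI GFP right, 137 in TBI GFP left, 175 in sham VEGFC right and 66.6 in sham GFP right (log2 difference -2.49, SE 0.44, adjusted p = 0.000458 by edgeR). Both were higher with VEGFC in sham. Gpc5 was lower with VEGFC in both TBI contexts, whereas Ndst4 was lower in TBI left and near equal in TBI right. Without TBI GFP left the Ndst4 difference was -1.28 (adjusted p = 0.383). The marker balance of this class also differed between libraries. Excitatory markers, 3 to 5 of 5 with UMIs (Slc17a7 and Neurod6 at 0 in TBI GFP right), summed to 390.5 and 342 CPM in TBI VEGFC, 254 and 280.5 in TBI GFP, 259 in sham VEGFC and 368 in sham GFP. Inhibitory markers, 5 of 5 with UMIs, summed to 351 and 309.7 CPM in TBI VEGFC, 549 and 426 in TBI GFP, 453 in sham VEGFC and 298 in sham GFP. The 3 libraries with the most excitatory marker RNA were the 3 highest for Hs3st4 and the 3 lowest for Gpc5. Ndst4 was low also in TBI GFP right, which had the least excitatory marker RNA. The part of this balance in the 3 results was not tested. The class held 46 nuclei in TBI GFP right and 259 in TBI GFP left, its smallest and largest libraries. Gpc5 in interneurons also passed, with 49.8 CPM in TBI VEGFC right, 31.3 in TBI VEGFC left, 63.4 in TBI GFP right, 51.6 in TBI GFP left, 65.1 in sham VEGFC right and 25.8 in sham GFP right (log2 difference -1.83, SE 0.33, adjusted p = 0.0149 by edgeR). It rested on 239 of 2606 nuclei, and sham GFP right, the lowest, had 47 UMIs. Among nuclei with a doublet score of at most 0.05 the adjusted p was 0.411, and with DESeq2 it was 1.

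Other genes of the pathway were taken from 7 lists: the linkage region, sulfate donors and sugar nucleotides, dermatan epimerases, chondroitin core proteins, secreted heparan sulfate core proteins, lysosomal breakdown enzymes and receptors of the chains. Of their 55 genes, 54 were tested in the additive model, in 472 pairs with a class or set, and 55 in the interaction, in 500 pairs. With VEGFC 0 pairs rose and 0 fell by edgeR, with 32 at an unadjusted p under 0.05 (6.78%, and 5.67% of all pairs). In TBI right against sham right 0 rose and 0 fell, with 29 at that p (6.14%, and 5.28% of all pairs). In TBI right against TBI left 1 fell and 0 rose, and in the interaction 1 was higher and 0 lower. At that p there were 16 pairs in TBI right against TBI left (3.39%, and 3.58% of all pairs) and 44 in the interaction (8.8%, and 7.39%). Both pairs that passed were Ptprd, a receptor phosphatase related to the chondroitin sulfate receptor Ptprs. In microglia Ptprd had 0 and 2 UMIs in TBI right against 37 and 26 in TBI left, VEGFC before GFP, of which 30 in TBI VEGFC left and 25 in TBI GFP left came from 1 nucleus (adjusted p = 2.48e-05 by edgeR). In mixed neurons it had 4754 CPM in TBI VEGFC right, 3303 in TBI VEGFC left, 1636 in TBI GFP right, 2993 in TBI GFP left, 2651 in sham VEGFC right and 5237 in sham GFP right (log2 difference 1.87, SE 0.29, adjusted p = 8.12e-05 by edgeR).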

How the data were processed

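Nuclei were extracted from flash-frozen hippocampus and sequenced with the 10x Genomics Chromium 3′ assay (version 3.1), per the labels. The authors deposited whole UMI counts per gene and nucleus, with their classes and clusters, made with Cell Ranger 7.0.1 and Scanpy on mm10 per the submitters' processing notes. The labels do not say whether intronic reads were counted. The authors also deposited the percent of mitochondrial counts and a doublet score for each nucleus. Counts were summed per library and class, or set of clusters, and tested with edgeR 4.0.16 in R 4.3.3 (filterByExpr, TMM, quasi-likelihood test, Benjamini-Hochberg over all genes of the class). DESeq2 1.42.0 and limma 3.58.1 with voom were alternatives. The interaction is the TBI difference of VEGFC and GFP minus the sham difference, over 4 injury and vector groups. The fits were tested on simulated counts. CPM intervals are exact Poisson 95% intervals and cover counting error only. The deposited nuclei had at least 1001 UMIs, doublet scores up to 0.099 and up to 0.999% mitochondrial counts. No further nuclei were removed as doublets, and a doublet score of at most 0.05 was an alternative. Named are members past the threshold, the up to 3 members with most UMIs in each role, and for each comparison the 5 pairs next in p, with every other member accounted for by level or count. Members, markers and pathway lists were chosen with earlier results of these data known.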

Additional observations from a re-analysis of the deposited data

Results flagged for a closer look

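The difference between VEGFC and GFP was another after TBI than after sham, by the edgeR interaction test, for 5 pairs of gene and class. The log2 difference was 0.71 for Chst9 in dentate granule-like neurons, with both TBI VEGFC libraries above their GFP libraries (2 of 2 contexts) and the sham VEGFC library below its GFP library. In mixed neurons it was 2.40 for Hs3st4, -1.93 for Gpc5 and -2.49 for Ndst4, where without TBI GFP left Ndst4 had -1.28 (adjusted p = 0.383 by edgeR). Excitatory markers in that class were higher in the libraries where Hs3st4 was higher and Gpc5 lower. Ndst4 was low also in TBI GFP right, where excitatory markers were lowest. The part of this marker balance was not tested. In interneurons it was -1.83 for Gpc5, where both TBI VEGFC libraries lay below their GFP libraries and the sham VEGFC library above its own. With DESeq2 neither Chst9 nor Gpc5 in interneurons passed.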

How the results depend on the processing

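The count of members past the threshold for VEGFC over GFP was 0 with DESeq2, 0 at a doublet score of at most 0.05, 0 with no context term and 5 with no filter on low counts, against 1. It was 1 to 9 when a library was left out, with 9 without sham GFP right, 9 without sham VEGFC right, and 2 without TBI GFP left or TBI VEGFC left. Leaving out either library of a context takes that context out of the VEGFC comparison, so both settings of a context are not separate checks. For TBI right over sham right the count was 0 with DESeq2, limma-voom or the doublet limit and 2 with no filter, against 1. It was 0 to 6 when a library was left out, with 6 without sham GFP right, 4 without sham VEGFC right, 0 without TBI VEGFC right and 2 without any other. For TBI right over TBI left it was 1 with DESeq2, 0 with the doublet limit and 4 with no filter, against 2, and 0 to 5 when a library was left out, with 0 without TBI GFP right and 5 without TBI VEGFC left. For the interaction it was 2 with DESeq2, against 5, and 5 to 8 without a TBI library, with 8 without TBI GFP right or TBI GFP left. The other alternatives stayed within the 1.5-fold range of these counts, and the causes were not tested. At the doublet limit, fibroblasts, microglia and mixed neurons had under 20 nuclei in a library and were left out. Of the 5 interaction pairs, only Chst9 in dentate granule-like neurons passed at that limit, so the count there does not stand for the same pairs. The fold of Hpse2 in astrocytes turned its sign when a TBI right library was left out. For VEGFC over GFP it was -0.37 without TBI GFP right and -0.35 without TBI VEGFC right, and up to 4.24 without another library. For TBI right over sham right it was -0.20 without TBI VEGFC right, and up to 4.81 without another. Of the other fold values under alternatives, 238 kept their direction and side of the threshold, 23 lost the threshold and 18 gained it. The 19 members with the same highest class in every library were 20 by mean per nucleus, 26 at the doublet limit, 16 of 42 members with at least 500 UMIs, and 19 to 21 when a library was left out. No paired analysis was possible because each replicate number names 1 library and no number is shared between groups. The context term sets each VEGFC library against the GFP library of its context, which is no pairing of mice by the labels. Depth limits the small classes, since 4 members were tested in microglia and 11 in fibroblasts.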

Other observations

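Hs6st2, Gpc4 and Gpc3 lie in a row on chromosome X, Hs6st2 and Gpc4 371 kb apart and Gpc4 and Gpc3 107 kb apart (mm10, GENCODE M21), and they differed in their classes. Hs6st2 had a median of 244 CPM in choroid plexus, 61.7 in excitatory and 119.8 in inhibitory neurons. Gpc4 had 57 CPM in choroid plexus, 62.3 in excitatory and 5.12 in inhibitory neurons. Gpc3 had 0 CPM in choroid plexus, 8.11 in excitatory and 50.02 in inhibitory neurons. Gpc4 and Gpc3 thus stood on opposite sides of the 2 main neuron classes. These are levels in 6 libraries, given with no test.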
